A study of Mus musculus with 60 samples.

Results

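Clock genes were examined in the brains of mice lacking paraoxonase 2 (PON2), an intracellular lactonase encoded by Pon2, and of their wild-type littermates. The members were 10 genes, chosen by symbol out of the 20423 genes in the count table: Arntl, Clock, Per1, Per2, Per3, Cry1, Nr1d1, Nr1d2, Ciart and Dbp. All 10 were found and all 10 passed the filter on low counts in every region. They were chosen with earlier genotype results of these libraries known, those of cortex above all, so the cortical genotype values are given as a description.

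The tested mice were PON2-deficient homozygotes and the comparison mice wild-type littermates, both from crosses of heterozygotes on a C57BL/6J background. Mice of both sexes went through behavioural tests in rolling cohorts and were killed at 3 to 4 months of age, after housing under 14 h of light and 10 h of dark. Cerebral cortex, striatum and cerebellum were dissected, frozen and powdered, and total RNA was sequenced as paired reads of 150 nt. Each of the 12 groups of region, sex and genotype held 5 libraries, which gave 60 in all, 20 in each region and 10 per genotype in a region. The labels used here give neither the time of day of collection nor the cohort of a mouse, and they do not say whether libraries with equal numbers in 3 regions came from 1 mouse.

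In mammals the clock is a feedback loop of transcription. ARNTL (also called BMAL1) and CLOCK form the activator limb, a dimer that binds E-box elements and drives the Per, Cry, Nr1d, Ciart and Dbp genes. The PER and CRY proteins return to repress that dimer, and NR1D1 and NR1D2 (REV-ERB alpha and beta) repress Arntl through ROR elements, so that Arntl peaks at the opposite side of the day to Dbp, Nr1d1 and the Per genes. DBP is an output factor that binds D-box elements, and CIART (also called CHRONO) is a further repressor of the dimer. Per1 and Per2 also respond to neuronal activity through CRE elements and to glucocorticoid hormone, apart from the loop.

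Library totals ran from 26.09 to 28.13 M counts, so 1 count per M counts (CPM) stood for about 26 counts or more. Pon2 averaged 3.45 ± 0.915 CPM in PON2-deficient cortex and 55.5 ± 2.86 CPM in wild-type cortex (SD, n = 10 each), and no library crossed over in any region. The summed level of 5 markers of each region was highest in the libraries labelled with it, and the markers of cortex (1489 to 1984 CPM) were 204 to 898 CPM in striatum and 409 to 516 CPM in cerebellum. PON2-deficient male striatum 5 stood apart, with a mean deposited precision weight of 0.0527 of the striatal median, and results in striatum are also given without it where they changed. Levels in tissue RNA cannot tell fewer cells of a type from less RNA per cell.

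Windows from 250 bases before to 50 bases after the RefSeq start sites (mouse build GRCm38.p6) were found for 9 of the 10 members, 13 windows in all, and were searched on both strands for 4 motifs. The E-box was CACGTG, the D-box TTATGTAA or TTACGTAA, the ROR element TAGGTCA or TGGGTCA and the CRE element TGACGTCA. The E-box was present in 7.15% of all 32851 windows in the table, the D-box in 1.06%, the ROR element in 6.45% and the CRE element in 1.79%. The 4 windows printed here are shown because they carry the elements of the loop in the genes whose order among libraries is described further on, with the motif letters in capitals. The Ciart window at chr3:95882179-95882478 on the minus strand held 3 E-boxes, which began at positions -116, -58 and -44 from the start site. The Per3 window at chr4:151044616-151044915 on the minus strand held 2 D-boxes, at -205 and -158. Of the 2 overlapping Arntl windows, that at chr7:113207261-113207560 on the plus strand held 1 ROR element, at 30. Of the 2 Per1 windows, that at chr11:69098699-69098998 on the plus strand held 1 E-box, at -166.
Ciart: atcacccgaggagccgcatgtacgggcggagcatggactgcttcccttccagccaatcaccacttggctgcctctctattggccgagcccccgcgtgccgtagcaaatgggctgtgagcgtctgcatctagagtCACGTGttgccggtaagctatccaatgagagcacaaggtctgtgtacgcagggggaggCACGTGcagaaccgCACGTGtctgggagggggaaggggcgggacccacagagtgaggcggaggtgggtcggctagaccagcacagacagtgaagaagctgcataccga
Per3: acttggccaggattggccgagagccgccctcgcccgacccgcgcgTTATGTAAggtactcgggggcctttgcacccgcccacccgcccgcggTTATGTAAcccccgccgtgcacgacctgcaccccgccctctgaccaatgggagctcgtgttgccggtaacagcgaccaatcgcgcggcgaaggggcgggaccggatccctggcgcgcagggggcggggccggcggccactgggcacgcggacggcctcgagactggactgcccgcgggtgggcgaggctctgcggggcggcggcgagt
Arntl: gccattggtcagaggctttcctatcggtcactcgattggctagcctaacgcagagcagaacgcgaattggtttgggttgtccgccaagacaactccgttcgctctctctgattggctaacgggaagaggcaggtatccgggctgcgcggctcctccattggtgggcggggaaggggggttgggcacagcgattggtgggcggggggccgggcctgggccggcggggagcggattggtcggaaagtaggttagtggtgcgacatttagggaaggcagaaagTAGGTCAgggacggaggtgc
Per1: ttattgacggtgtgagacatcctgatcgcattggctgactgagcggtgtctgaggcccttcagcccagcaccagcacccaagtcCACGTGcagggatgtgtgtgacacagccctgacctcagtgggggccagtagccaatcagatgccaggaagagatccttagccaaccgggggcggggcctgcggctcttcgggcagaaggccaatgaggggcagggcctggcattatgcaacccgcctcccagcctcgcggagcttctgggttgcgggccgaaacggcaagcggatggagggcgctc
The Cry1 window held 1 E-box at -60, and the windows of Dbp, Clock, Nr1d1 and Nr1d2, the other Arntl window and the other Per1 window held none of the 4 motifs. These matches describe the letters of 300 bases and not binding.

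The clock genes had different levels in the 3 regions, and the order of regions was not the same for every gene. Levels are in CPM and are compared between regions within a gene only. Of the activators, Arntl (chr7:113207465-113314126, GENCODE M21 on GRCm38) averaged 43.8 ± 5.69 CPM in cerebellum, 35.2 ± 7.62 in striatum and 34.9 ± 4.86 in cortex (SD, n = 20 each). Arntl in cerebellum was 0.33 above cortex on the log2 scale (SE 0.069, adjusted p = 2.4e-05) and 0.32 above striatum (SE 0.069, adjusted p = 3.97e-05), by edgeR's quasi-likelihood test with Benjamini-Hochberg adjustment over all genes. Striatum and cortex did not differ beyond the spread in Arntl (log2 0.01, SE 0.0693, adjusted p = 0.913). Clock (chr5:76209868-76304792), the partner of ARNTL, averaged 120 ± 9.62 CPM in cerebellum, 90 ± 9.85 in striatum and 84.6 ± 7.22 in cortex (SD, n = 20 each). Its cerebellar level was 0.51 above cortex (SE 0.0435, adjusted p = 9.4e-16), and striatum against cortex missed the threshold (log2 0.09, adjusted p = 0.0787; same edgeR test).

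Among the repressors, Cry1 (chr10:85131700-85185064) had the widest regional range, with 41 ± 5.34 CPM in cerebellum, 21.7 ± 2.39 in striatum and 16.4 ± 1.8 in cortex (SD, n = 20 each). The lowest cerebellar library, at 30.8 CPM, lay above the highest striatal library, at 26.4 CPM. All 3 regional differences in Cry1 passed the edgeR test, from log2 0.41 for striatum over cortex (adjusted p = 2.98e-10) to 1.32 for cerebellum over cortex (adjusted p = 2.68e-31). Per1 (chr11:69095217-69109960) ran the other way, with 88.5 ± 24.8 CPM in cerebellum, 121 ± 26.6 in striatum and 141 ± 40.7 in cortex (SD, n = 20 each). Per2 (chr1:91415982-91459324) averaged 24.5 ± 6.45 CPM in cerebellum, 31.8 ± 6.15 in striatum and 33.7 ± 6.86 in cortex. Cerebellum was lower than cortex in Per1 by log2 -0.67 (adjusted p = 4.87e-08) and in Per2 by -0.46 (adjusted p = 1.44e-07), and for both genes striatum and cortex did not differ past the edgeR threshold (adjusted p = 0.078 and 0.407). Per3 (chr4:151003652-151044665) passed in no regional comparison, at 46.6 ± 9.69 CPM in cerebellum, 41.6 ± 6.83 in striatum and 42.7 ± 5.63 in cortex.

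The Rev-erb genes split from each other. Nr1d2 (chr14:18204054-18239127) averaged 181 ± 25.4 CPM in cerebellum, 106 ± 15.3 in striatum and 95.1 ± 11.3 in cortex, and was 0.93 higher in cerebellum than in cortex on the log2 scale (SE 0.0603, edgeR adjusted p = 1.97e-20). The smaller difference of Nr1d2 between striatum and cortex (log2 0.16, adjusted p = 0.0182) lost its call without replicate 3 of every group (log2 0.12, adjusted p = 0.152). Nr1d1 (chr11:98767932-98775333) had its low level in striatum, at 112 ± 20.7 CPM, against 135 ± 20.9 CPM in cerebellum and 133 ± 16.6 CPM in cortex. Striatum was lower than cortex in Nr1d1 by log2 -0.25 (SE 0.0612, adjusted p = 0.000433), while cerebellum and cortex did not differ past the threshold (log2 0.03, adjusted p = 0.669). Exons of Nr1d1 overlap those of Thra on the opposite strand, and whether the counting used strand is not given in the sources used here, so Nr1d1 levels are uncertain in that respect. Thra, a thyroid hormone receptor gene, averaged 363 ± 17.6 CPM in cerebellum, 582 ± 40.2 in striatum and 652 ± 25.6 in cortex.

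Dbp (chr7:45705088-45710203) was high in striatum, at 137 ± 37.9 CPM, against 79.5 ± 21.3 CPM in cerebellum and 82.6 ± 20.4 CPM in cortex (SD, n = 20 each). The striatal level was 0.73 above cortex on the log2 scale (SE 0.12, edgeR adjusted p = 6.43e-07), and cerebellum against cortex gave -0.06 (SE 0.12, adjusted p = 0.676). Dbp shares exonic sequence with Sphk2 on the opposite strand, a sphingosine kinase gene that averaged 25.1 ± 5.01 CPM in striatum and 30.6 ± 2.73 CPM in cortex. Ciart (chr3:95878503-95882251) did not differ between regions past the threshold, at 12.9 ± 3.61 CPM in cerebellum, 14.9 ± 5.77 in striatum and 14.9 ± 4.02 in cortex. In all, 4 of 10 members were called between striatum and cortex (57% of all genes tested), 6 of 10 between cerebellum and cortex (79.6%) and 8 of 10 between cerebellum and striatum (79.8%), by the same edgeR test. The share of members was below that of all genes in the pairs with cortex and near it between cerebellum and striatum.

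**Figure D1:**
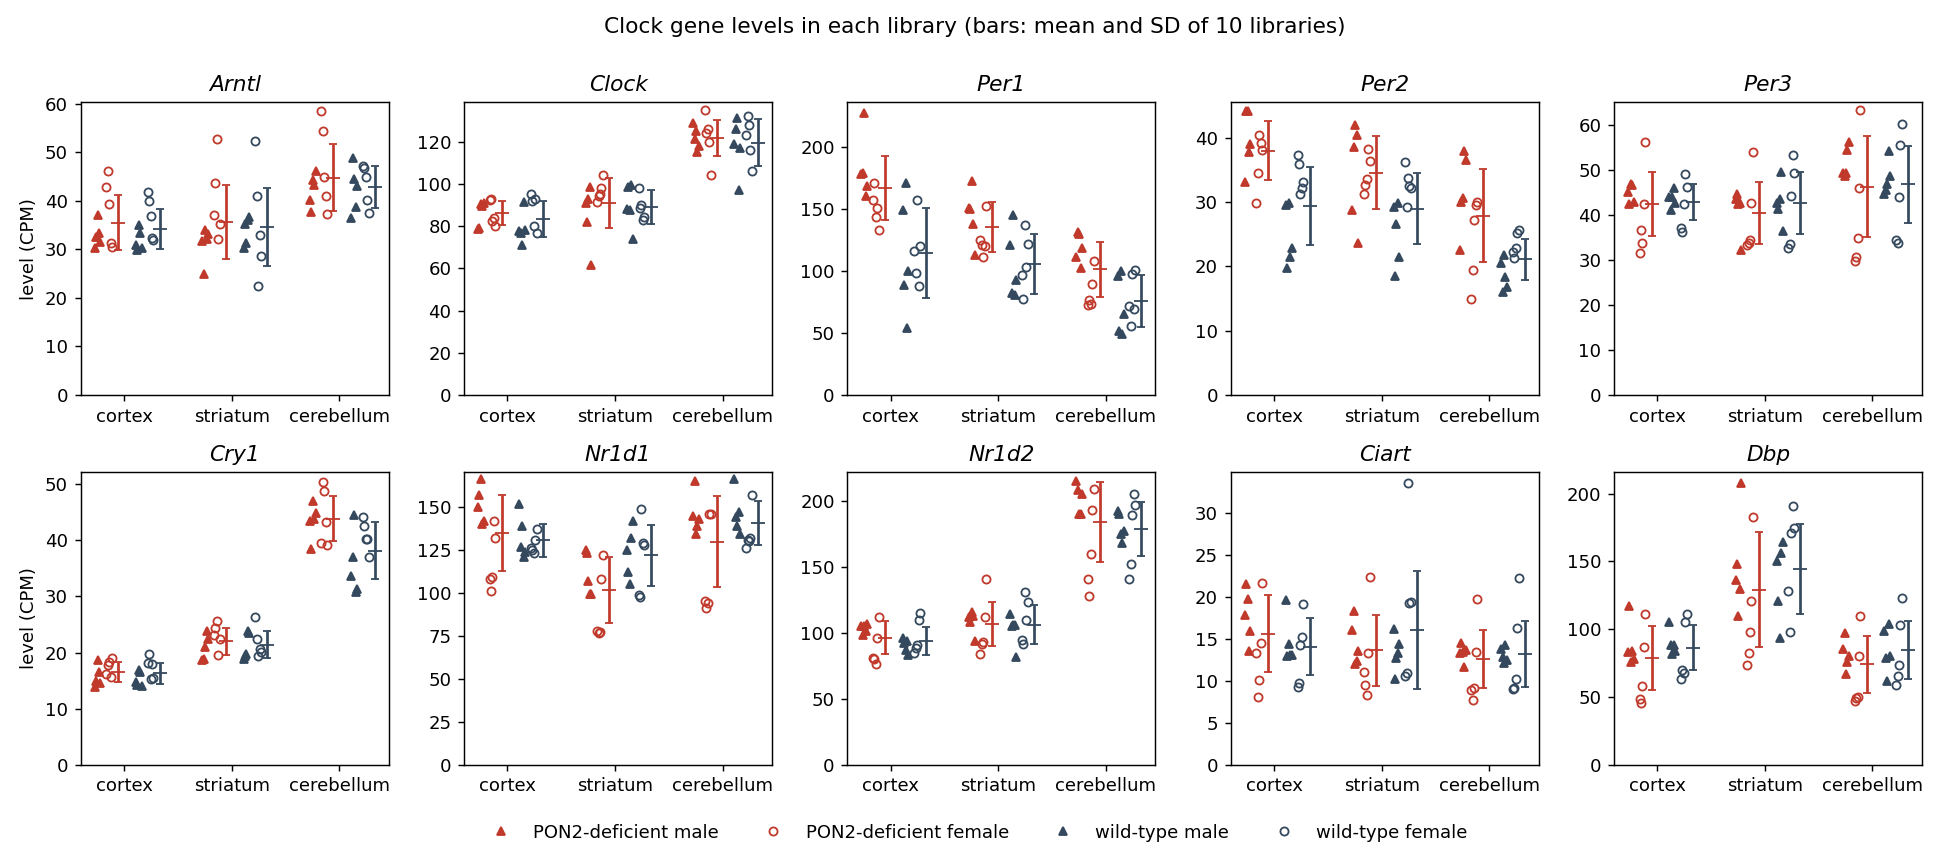
Level of each of the 10 clock genes in CPM (vertical axes, from 0) in cortex, striatum and cerebellum, with 1 point per library (red, PON2-deficient; dark blue, wild-type; triangles, male; open circles, female) and the mean and SD of the 10 libraries of a genotype beside them. Cry1 and Nr1d2 are highest in cerebellum and Dbp in striatum, and the genotypes overlap in every panel.

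Of 18 other genes of the clock pathway, a list that holds no member, 7 were higher and 9 lower in striatum than in cortex by the edgeR test. In cerebellum 7 were higher and 10 lower than in cortex, and 6 higher and 11 lower than in striatum. Of all genes tested, 57%, 79.6% and 79.8% were called in these comparisons. Rora, a receptor that activates through ROR elements, was 2.03 higher in cerebellum than in cortex on the log2 scale (SE 0.0659, edgeR adjusted p = 4.99e-34). Rorb was lower there by -2.39 (SE 0.0645, adjusted p = 6.66e-38). Npas2, which can take the place of CLOCK in the dimer, was lower in cerebellum by log2 -3.16 against cortex (SE 0.0939, adjusted p = 6.87e-36) and by -3.58 against striatum (SE 0.0947, adjusted p = 2.33e-38; edgeR with Benjamini-Hochberg adjustment). Rora was also higher in cerebellum than in striatum, by 2.38 (SE 0.0669, adjusted p = 4.17e-37), and Btrc, of a ubiquitin ligase that acts on PER proteins, was lower by -0.59 (SE 0.0276, adjusted p = 1.04e-26). Between striatum and cortex, Rorb was lower by -1.20 (SE 0.0612), Bhlhe40 by -1.10 (SE 0.0776) and Csnk1e, a kinase of the PER proteins, by -0.32 (SE 0.0288), with edgeR adjusted p of at most 3.08e-14.

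Between genotypes, Per1 and Per2 had the largest differences of the 10 members in cortex and cerebellum, and both averaged higher in PON2-deficient mice in all 3 regions. In cortex, where the values are a description, Per1 averaged 167 ± 25.9 CPM in PON2-deficient mice and 114 ± 36 CPM in wild-type mice (SD, n = 10 each). Per2 averaged 38 ± 4.55 CPM in PON2-deficient cortex and 29.3 ± 6.06 CPM in wild-type cortex. The log2 differences, PON2-deficient minus wild-type, were 0.54 (SE 0.147) for Per1 and 0.39 (SE 0.0772) for Per2, against -0.15 to 0.14 for the other 8 members. Of the 10 members 8 were higher and 2 lower, the median difference was 0.041 against -0.00056 over all genes, and 0 passed the threshold of an adjusted p of 0.05 (0.0316% of all genes tested).

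In cortex the Per2 values of the genotypes lay farther apart in males than in females. Per2 had 33.1, 44.1, 44.1, 37.8 and 39.1 CPM in PON2-deficient males, against 29.5, 19.7, 29.9, 21.5 and 22.8 CPM in wild-type males. Every PON2-deficient male library lay above every wild-type male library. How many of all genes separate in this way was not computed. In male cortex 2657 of 18972 genes had an unadjusted p under 0.05 by edgeR. In female cortex Per2 had 29.8, 34.6, 40.4, 39.2 and 38.1 CPM in PON2-deficient mice, against 37.3, 36, 31.3, 32.2 and 33.2 CPM in wild-type mice, and these ranges overlapped. In males the log2 difference of Per2 was 0.68 (SE 0.11). Of the 10 members 1, Per2, lay past the threshold there (0.148% of all genes), which is given as a count and not as a test, since the members were chosen with the cortical values known. Per1 in males differed by 0.69 (SE 0.208), with 178, 179, 227, 160 and 168 CPM in PON2-deficient males, against 149, 88.6, 171, 54.3 and 100 CPM in wild-type males. Wild-type male 4, at 54.3 CPM, was the lowest of the 20 cortical libraries in Per1. In females 0 of 10 members passed (0.00527% of all genes), and Per1 differed by 0.38 (SE 0.208).

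In striatum 0 of 10 members passed the threshold between genotypes (0.0105% of all genes), with 6 members higher and 4 lower and a median difference of 0.014 against 0.0098 over all genes. Per1 averaged 135 ± 20.3 CPM in PON2-deficient striatum and 106 ± 24.2 CPM in wild-type striatum (SD, n = 10 each; log2 0.35, SE 0.117, edgeR adjusted p = 0.766). Per2 averaged 34.6 ± 5.7 CPM in PON2-deficient striatum and 29 ± 5.48 CPM in wild-type striatum (log2 0.27, SE 0.103, adjusted p = 0.887). Nr1d1 averaged 102 ± 19 CPM in PON2-deficient striatum and 122 ± 17.8 CPM in wild-type striatum (log2 -0.27, SE 0.1, adjusted p = 0.848). For all 3 genes the ranges overlapped, and none of the differences held up over all genes. In each sex alone 0 members passed (0.00527% of all genes in females and in males), and in female striatum Nr1d1 (-0.38, SE 0.142), Dbp (-0.45, SE 0.233) and Ciart (-0.54, SE 0.281) had the smallest p-values, each with an adjusted p of 1 by edgeR. In male striatum Per1 gave 0.47 (SE 0.166, adjusted p = 0.792).

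In cerebellum 0 of 10 members passed between genotypes (0.0321% of all genes), with 6 higher and 4 lower and a median of 0.033 against 0.0009 over all genes. Per2 averaged 27.9 ± 7.19 CPM in PON2-deficient cerebellum and 21.1 ± 3.23 CPM in wild-type cerebellum (SD, n = 10 each; log2 0.40, SE 0.115, edgeR adjusted p = 0.167). Per1 averaged 101 ± 22.4 CPM in PON2-deficient cerebellum and 75.7 ± 21 CPM in wild-type cerebellum (log2 0.40, SE 0.134, adjusted p = 0.252). Cry1 averaged 43.9 ± 4.06 CPM in PON2-deficient cerebellum and 38.2 ± 5.04 CPM in wild-type cerebellum (log2 0.21, SE 0.0664, adjusted p = 0.223). DESeq2 alone called Per2 here (adjusted p = 0.0426), in a run that called 244 genes where edgeR called 6.

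Male cerebellum showed the same layout of Per2 as male cortex, and whether these libraries come from the same mice is not in the labels. Over both sexes, Per2 deviations of equally numbered libraries correlated between cerebellum and cortex (r = 0.614, permutation adjusted p = 0.0133, n = 20). The members were also chosen with earlier genotype results known, so the cerebellar layout is not read as independent of that in cortex. Per2 had 22.5, 30.1, 30.6, 38 and 36.5 CPM in PON2-deficient males, against 20.6, 16.1, 21.8, 18.3 and 16.8 CPM in wild-type males (log2 0.76, SE 0.163, edgeR adjusted p = 0.0905). Per1 had 111, 131, 130, 102 and 118 CPM in PON2-deficient males, against 95.8, 51.8, 100, 49.3 and 65.4 CPM in wild-type males (log2 0.71, SE 0.19, adjusted p = 0.17). The male genotypes did not overlap in either gene, at the closest by 22.5 against 21.8 CPM in Per2 and 102 against 100 CPM in Per1. How many of all genes separate in this way was not computed, and 1988 of 18710 had an unadjusted p under 0.05 by edgeR. Of the members 0 passed the threshold (0.016% of all genes) by edgeR. By DESeq2, Per2 was called in male cerebellum (adjusted p = 0.00286), in a run that called 203 genes where edgeR called 3. In female cerebellum the differences were 0.05 (SE 0.162) for Per2 and 0.09 (SE 0.19) for Per1, and 0 members passed (0.00534% of all genes); the smallest p-value was that of Nr1d1 (-0.24, SE 0.118, edgeR adjusted p = 0.952). Cry1 in male cerebellum gave 0.30 (SE 0.0941, adjusted p = 0.238). In male striatum, Per2 had 28.8, 38.6, 42, 40.4 and 23.6 CPM in PON2-deficient mice, against 29.3, 18.5, 26.6, 29.8 and 21.5 CPM in wild-type mice (log2 0.46, SE 0.146, adjusted p = 0.792), so that these groups overlapped. The lowest of the PON2-deficient values, 23.6 CPM, belonged to the library that stood apart.

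**Figure D2:**
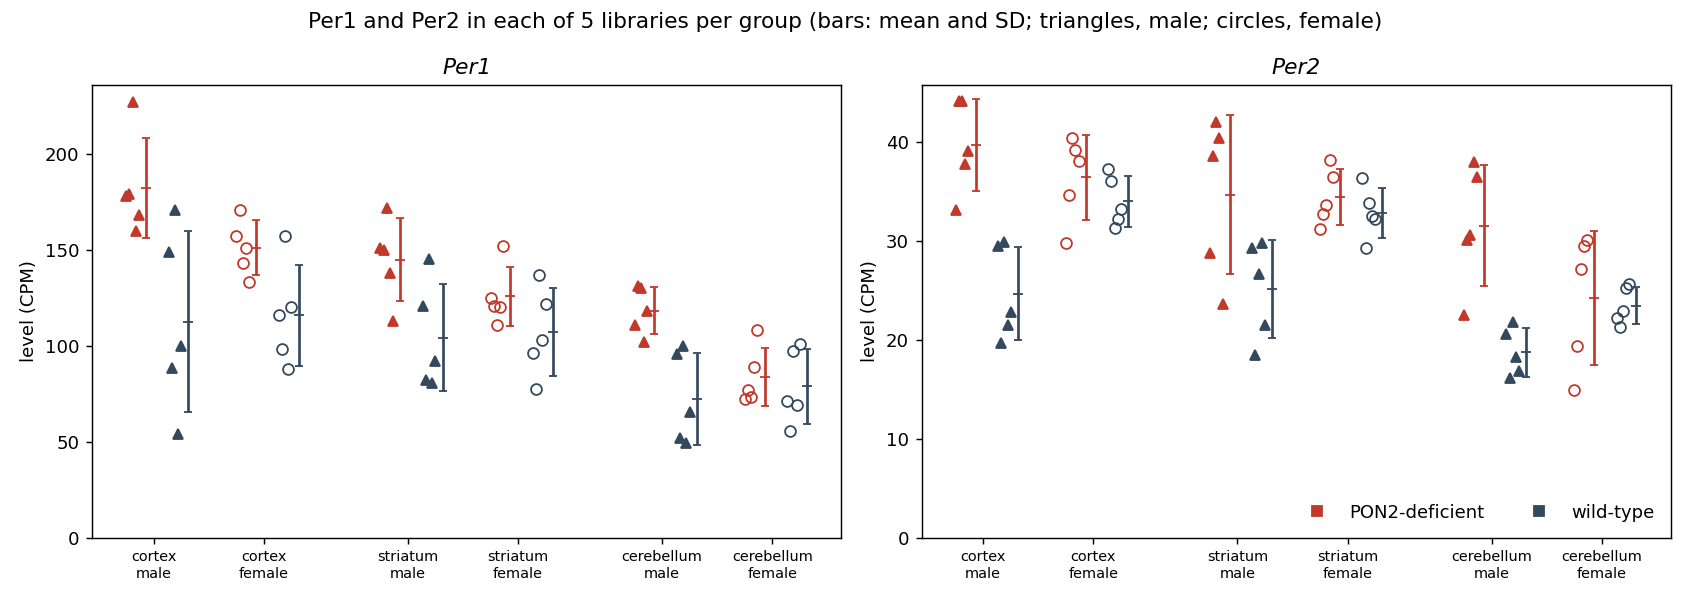
Per1 (left) and Per2 (right) levels in CPM (vertical axes, from 0) in the 5 libraries of each region, sex and genotype (red, PON2-deficient; dark blue, wild-type; triangles, male; open circles, female), with bars for the mean and SD. In male cortex and male cerebellum the PON2-deficient Per2 libraries (33.1 to 44.1 and 22.5 to 38 CPM) lie above all wild-type ones (19.7 to 29.9 and 16.1 to 21.8 CPM), while the female groups overlap in all 3 regions.

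The difference of the genotype effect between the sexes was tested directly, male effect minus female effect, and passed for 0 of 10 members and for 0% of genes in each region by edgeR. At an unadjusted p under 0.05 there were 1814 genes for cortex, 818 for striatum and 885 for cerebellum, and DESeq2 called 51, 7 and 1 genes. Per2 gave 0.58 in cortex (SE 0.154) and 0.71 in cerebellum (SE 0.229, adjusted p = 0.967), and Per1 gave 0.62 in cerebellum (SE 0.268, adjusted p = 0.967). The difference of the genotype effect between regions also passed for 0 of 10 members in each of the 3 pairs of regions (0%, 0.0147% and 0.00981% of all genes for striatum against cortex, cerebellum against cortex and cerebellum against striatum; 1285 genes had an unadjusted p under 0.05 in the first, where DESeq2 called 7). The nearest was Nr1d1 in striatum against cortex (log2 -0.30, SE 0.122, edgeR adjusted p = 0.725).

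Between the sexes, averaged over genotypes, 0 of 10 members passed in cortex (0.0896% of all genes), striatum (0.105%) or cerebellum (0.118%). In cortex Nr1d1 was 0.20 higher in males than in females (SE 0.0568, edgeR adjusted p = 0.257), Arntl gave -0.20 (SE 0.0718, adjusted p = 0.338) and Cry1 -0.16 (SE 0.0629, adjusted p = 0.389). In cerebellum Nr1d1 gave 0.23 (SE 0.0835, adjusted p = 0.57), and in striatum Per2 gave -0.19 (SE 0.103, adjusted p = 0.69).

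**Figure D3:**
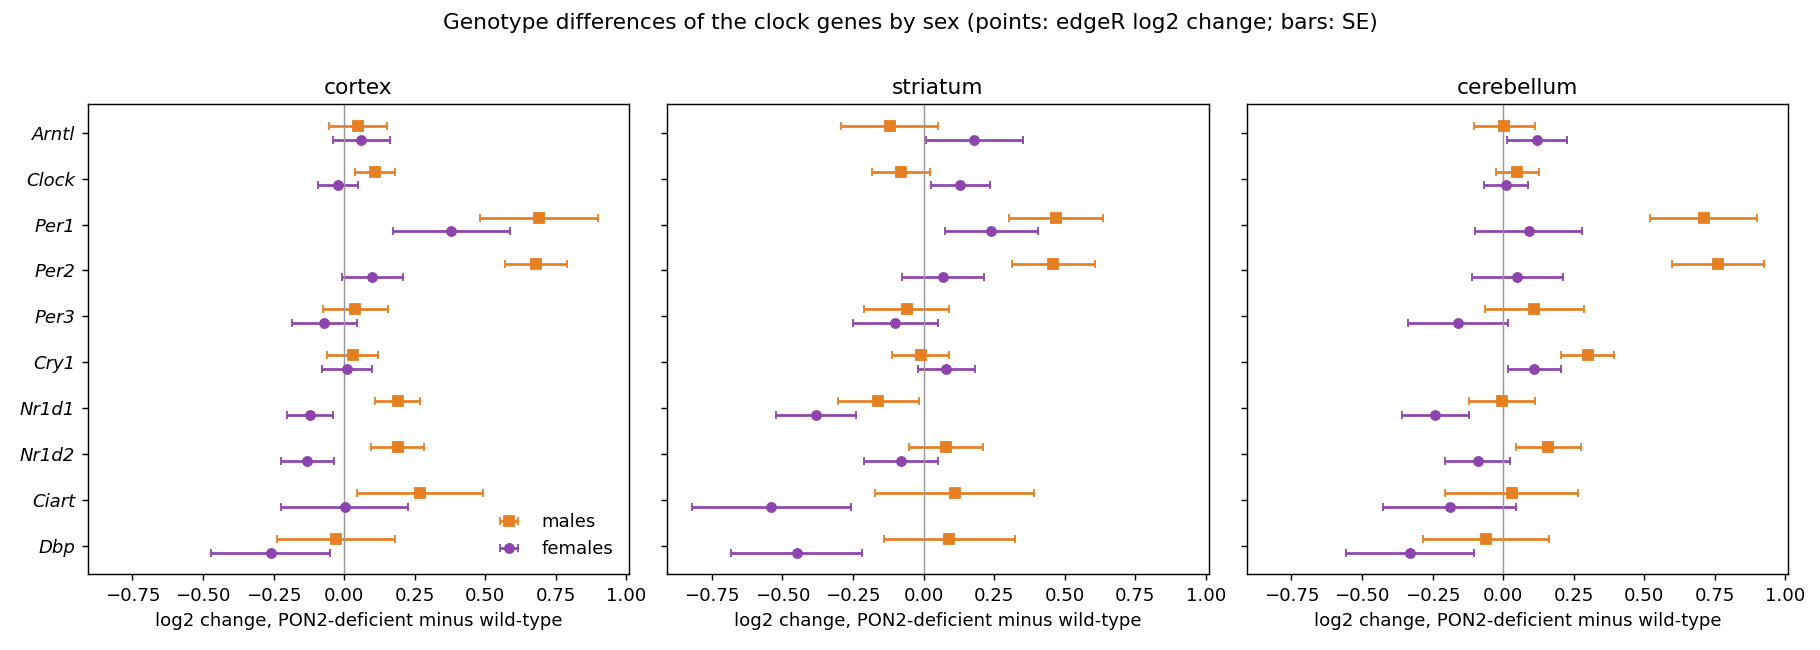
Log2 difference, PON2-deficient minus wild-type, of each clock gene (from top to bottom) in cortex, striatum and cerebellum, for males (orange squares) and females (purple circles), with the edgeR estimate as a point and its SE as a bar. Per1 and Per2 lie to the right of 0 in males in all 3 regions (0.46 to 0.76), and Arntl and Clock lie within 0.18 of 0 throughout.

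Of the 18 other clock pathway genes, 0 passed between genotypes or sexes in any region. Bhlhe40, a repressor that competes at E-boxes and is also induced by activity, had the smallest p-value in cortex, with a log2 difference of 0.36 (SE 0.104), followed by Cry2, a paralogue of Cry1, with 0.08 (SE 0.0306). In striatum these were Nfil3 (0.27, SE 0.113, edgeR adjusted p = 0.936) and Timeless (0.28, SE 0.13, adjusted p = 0.994), and in cerebellum Csnk1e (0.08, SE 0.0393, adjusted p = 0.447) and Timeless (0.18, SE 0.0961, adjusted p = 0.519).

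Other genes that respond to stimulation or to hormone were read beside Per1 and Per2. Immediate early genes, which neuronal activity induces, averaged higher in PON2-deficient mice for 9 of 10 in cortex (median log2 0.39) and 10 of 10 in striatum (median 0.37), and for 5 of the 9 tested in cerebellum (median 0.026). Their summed level was 722 to 1742 CPM in PON2-deficient cortex and 283 to 1480 CPM in wild-type cortex. In striatum it was 594 to 969 CPM in PON2-deficient mice and 263 to 845 CPM in wild-type mice, and in cerebellum 146 to 241 CPM in PON2-deficient mice and 86.8 to 279 CPM in wild-type mice. Of 8 genes that glucocorticoid induces, 8 were higher in cortex (median 0.093), 5 in striatum (0.037) and 8 in cerebellum (0.1), and their summed level was 414 to 554 CPM in PON2-deficient cortex and 358 to 522 CPM in wild-type cortex. It was 398 to 730 CPM in PON2-deficient striatum and 398 to 644 CPM in wild-type striatum, and 398 to 519 CPM in PON2-deficient cerebellum and 357 to 516 CPM in wild-type cerebellum. In males alone the glucocorticoid list was higher for 8 of its 8 in cortex (median 0.22), 6 of 8 in striatum (0.16) and 8 of 8 in cerebellum (0.34), against 3, 1 and 3 of 8 in females (medians -0.067, -0.15 and -0.063). The immediate early list in males was higher for 8 of 10, 9 of 10 and 4 of 9 genes, against 10, 10 and 8 in females. None of these genes passed the threshold, and the part of either list in the Per1 and Per2 values was not tested.

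Markers of choroid plexus, an epithelium that dissection can include, were lower in PON2-deficient cortex for 7 of 7 genes (median log2 -0.83) and in PON2-deficient cerebellum for 7 of 7 (median -0.34). Their sum ran from 15.6 to 506 CPM in PON2-deficient cortex and from 18.2 to 469 CPM in wild-type cortex. In cerebellum the sum ran from 32.6 to 2611 CPM in PON2-deficient mice and from 551 to 2168 CPM in wild-type mice. In striatum 3 of 7 were higher and 4 lower (median -0.084), with sums of 27 to 1833 CPM in PON2-deficient mice and 28.2 to 1180 CPM in wild-type mice. In male cortex, choroid plexus markers were lower for 6 of 7 genes (median -0.24). Markers of striatum, also outside the dissected region, went the other way and were higher for 5 of 5 genes (median 0.13). Their sum was 440 to 850 CPM in PON2-deficient male cortex and 427 to 768 CPM in wild-type male cortex. The markers of the remaining outside tissues had negative medians in PON2-deficient males. Those of cerebellum were lower for 4 of the 4 tested (median -1.5), those of ependyma for 4 of 4 (-0.65), those of thalamus for 6 of 6 (-0.34) and those of hypothalamic peptides for 2 of the 4 tested (-1.6). The summed cerebellar markers were 20 to 24.8 CPM in PON2-deficient male cortex and 17.4 to 67 CPM in wild-type male cortex, and the thalamic ones 72.2 to 104 CPM in PON2-deficient males and 90.6 to 197 CPM in wild-type males. The ependymal sum was 7.61 to 11.9 CPM in PON2-deficient male cortex and 11.2 to 16.5 CPM in wild-type male cortex, and that of hypothalamic peptides 33.2 to 49.6 CPM in PON2-deficient males and 30.5 to 141 CPM in wild-type males. In male cerebellum, the medians were -0.4 for choroid plexus (7 of 7 lower), -0.15 for ependyma (4 of 4 lower) and 0.025 for thalamus (2 of 6 lower). None of these markers was called, and their part in the Per1 and Per2 values was not tested. With the mean of the choroid plexus markers as a covariate, the number of members called was the same in every genotype comparison, and no marker was at 0 in every library of a region.

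The libraries of a region also differed among themselves in the balance of the activator genes against the repressor and output genes. This balance was summarised, as a description with no test, by the mean centred log2 CPM of Dbp, Nr1d1, Nr1d2, Per1, Per2, Per3 and Ciart minus that of Arntl and Clock, called the limb difference. It ran from -0.57 to 0.41 in cortex, from -0.65 to 0.71 in striatum and from -0.80 to 0.60 in cerebellum. PON2-deficient female 1 and 2 and wild-type female 1 and 2 were among the 5 lowest libraries in all 3 regions. PON2-deficient female 5, PON2-deficient male 2 and wild-type female 5 were among the 5 highest in all 3. Wild-type female 3 was an exception, 7th in cortex, 20th in striatum and 8th in cerebellum when counted from the lowest. The 5 PON2-deficient males lay above 0 in every region, from 0.09 to 0.41 in cortex, from 0.04 to 0.51 in striatum and from 0.11 to 0.40 in cerebellum, while the 5 wild-type males ran from -0.31 to 0.30, from -0.34 to 0.21 and from -0.26 to 0.26. Per1 and Per2 are part of this measure, and differences between genotypes and sexes were not removed from it. The 5 PON2-deficient females ran from -0.57 to 0.40, from -0.65 to 0.26 and from -0.80 to 0.60, and the 5 wild-type females from -0.42 to 0.30, from -0.53 to 0.71 and from -0.42 to 0.58.

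Dbp shows the width of this order. In cortex Dbp had 48.4, 45.5, 58, 86.8 and 111 CPM in PON2-deficient females, against 63.4, 70.2, 67.5, 105 and 111 CPM in wild-type females. In males it had 82.9, 117, 75.5, 83.9 and 78.3 CPM in PON2-deficient cortex, against 105, 88, 81.4, 88.3 and 83.8 CPM in wild-type cortex. Each male library was above the 3 lowest PON2-deficient and the 3 lowest wild-type female libraries. In cerebellum Dbp had 46.8, 49.3, 50.3, 80.2 and 110 CPM in PON2-deficient females, against 58.9, 65.4, 73.3, 103 and 123 CPM in wild-type females. Arntl in those libraries was 58.5, 54.3, 44.9, 41 and 37.3 CPM in PON2-deficient females, against 47.2, 46.8, 44.9, 40.2 and 37.4 CPM in wild-type females, so that its order was the reverse of Dbp's in each group.

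With the mean of each group of sex and genotype removed, 27 relations of a member with Arntl were tested, 9 genes in 3 regions, by permutation within groups. Of these, 15 passed after Benjamini-Hochberg adjustment, 13 of them negative. Dbp against Arntl gave r = -0.852 in cortex (rho = -0.821, permutation p = 0.0009, adjusted p = 0.00486, n = 20) and r = -0.855 in cerebellum (rho = -0.832, permutation p = 5e-05, adjusted p = 0.000675, n = 20). In striatum it was -0.345 and did not pass (rho = -0.373, permutation p = 0.194, adjusted p = 0.228, n = 20). Ciart against Arntl passed in cortex (r = -0.683), striatum (-0.835) and cerebellum (-0.769), with adjusted p of 0.025, 0.00479 and 0.00108 by the same permutation test. Nr1d2 also passed in all 3, with r of -0.779, -0.612 and -0.735 and adjusted p of 0.0131, 0.0275 and 0.0131. A coefficient of -0.5 or lower with Arntl was held in cortex by 4.38% of the genes with at least 1 CPM on average, in striatum by 3.9% and in cerebellum by 3.56%, and by 5, 5 and 6 of the other 9 members. A coefficient of 0.5 or higher was held by 6.65%, 3.47% and 3.42% of genes, and by 0, 1 and 1 members, Cry1 in striatum and Clock in cerebellum.

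The remaining members followed less fully. Nr1d1 passed in striatum (r = -0.662, permutation adjusted p = 0.0207) and cerebellum (-0.795, 0.00486), but in cortex (-0.553, 0.0937) it did not. Per3 passed in cortex (-0.692, 0.0379) and cerebellum (-0.731, 0.0121), and Per1 in striatum alone (-0.578, 0.021). Per2 passed in no region, with r of 0.088 in cortex, -0.152 in striatum and -0.596 in cerebellum. Cry1, whose transcript peaks later than those of the Per genes, had positive coefficients with Arntl, with r of 0.418 in cortex, 0.783 in striatum and 0.464 in cerebellum, of which striatum passed (adjusted p = 0.000675). Clock passed in cerebellum (r = 0.655, adjusted p = 0.0131). Without the 2 libraries farthest from the median of Arntl, the coefficients of Dbp were -0.773 in cortex and -0.804 in cerebellum, those of Ciart -0.488, -0.729 and -0.711 in the 3 regions, and that of Nr1d1 in cortex -0.371.

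Most of the relations that passed did so in the female libraries. In the 10 male libraries of a region alone, Dbp against Arntl gave r = -0.27 in cortex (rho = -0.188, permutation p = 0.486, adjusted p = 0.655 over the 54 relations by sex) and r = -0.743 in cerebellum (rho = -0.721, permutation p = 0.0318, adjusted p = 0.0954). In the 10 female libraries alone it gave r = -0.968 in cortex (rho = -0.939, permutation p = 0.00039, adjusted p = 0.00454) and r = -0.899 in cerebellum (rho = -0.915, permutation p = 0.00042, adjusted p = 0.00454). Over all members, 1 of 27 relations passed in males and 14 of 27 in females. The male relation was that of Cry1 with Arntl in cortex (r = 0.972, rho = 0.952, permutation adjusted p = 0.00306). Per2, which did not pass over both sexes, gave r = 0.067 in male cerebellum and r = -0.933 in female cerebellum (rho = -0.927, permutation adjusted p = 0.00306). The males also spread less in Dbp, with an SD around the group means of 0.205 in males and 0.477 in females in cortex on the log2 scale, and of 0.252 in males and 0.499 in females in cerebellum. For Per1 in cortex the SD was 0.482 in males and 0.245 in females. The difference between the sexes in these coefficients was not tested, and the split by sex was made after the pooled values were seen.

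**Figure D4:**
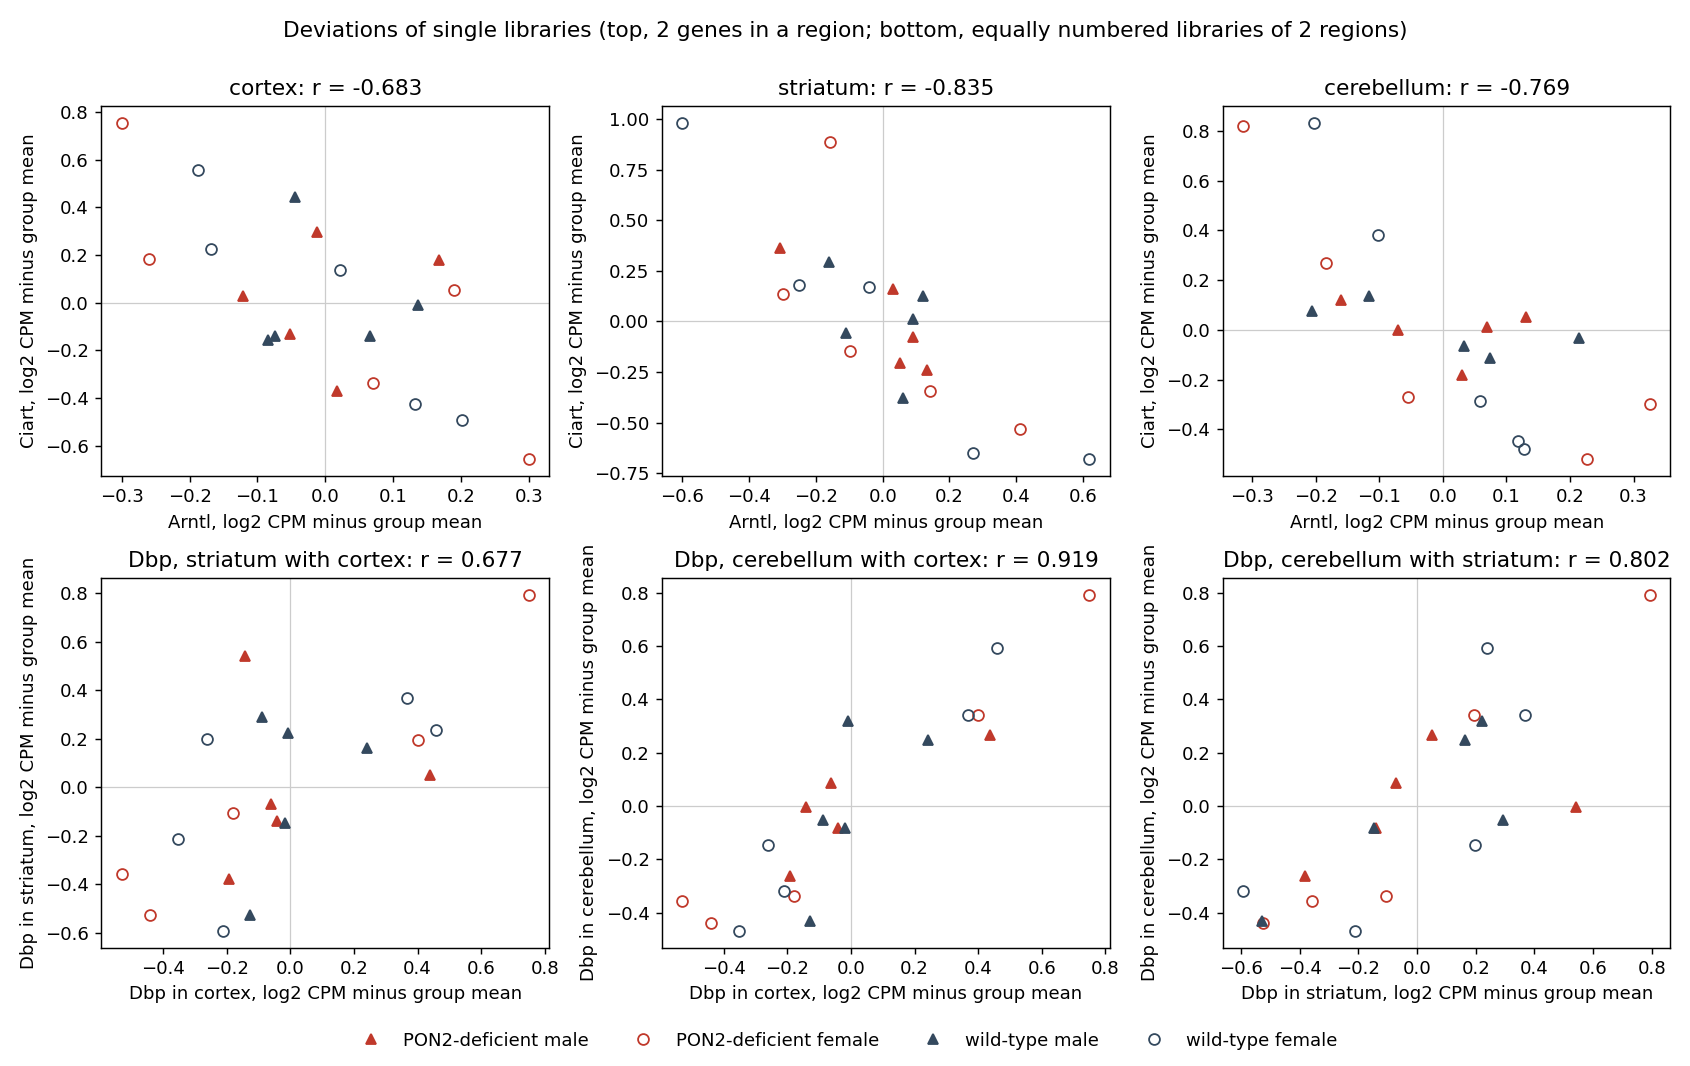
Deviations of single libraries from their group mean in log2 CPM (both axes), for Ciart against Arntl within each region (top) and for Dbp between equally numbered libraries of a pair of regions (bottom); red is PON2-deficient and dark blue wild-type, triangles are male and open circles female. Ciart is lower where Arntl is higher in all 3 regions (r = -0.683, -0.835 and -0.769), and Dbp deviates the same way in 2 regions (r = 0.677, 0.919 and 0.802).

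Libraries with equal numbers also deviated together between regions in most clock genes. Of 30 relations, 10 genes in 3 pairs of regions, 18 passed the permutation test after adjustment. Dbp gave r = 0.919 between cerebellum and cortex (rho = 0.904, permutation p = 2e-05, adjusted p = 0.0006, n = 20), 0.802 between cerebellum and striatum (rho = 0.802, permutation p = 0.00022, adjusted p = 0.00132) and 0.677 between striatum and cortex (rho = 0.617, permutation p = 0.00634, adjusted p = 0.0133). Per3 gave 0.911, 0.799 and 0.856 in the same pairs, and Per1 gave 0.743, 0.881 and 0.731, all past the threshold (permutation adjusted p from 0.0013 to 0.0133). Over all expressed genes the median coefficient was 0.0492 between cerebellum and cortex, 0.0677 between cerebellum and striatum and 0.0347 between striatum and cortex. In these pairs 6.65%, 5.1% and 4.84% of genes reached 0.5, against 8, 6 and 6 of the 10 members. The permutation test was not run over all genes. Clock had -0.124, -0.0643 and 0.0322 in the same pairs and Cry1 0.385, 0.12 and 0.435, and neither passed in any. Per2 between cerebellum and striatum was 0.355 (permutation adjusted p = 0.156) and, without the pair of PON2-deficient male 5, 0.613 (adjusted p = 0.00885).

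The genes outside the members with the course most like Dbp over libraries were ranked by the mean over the 3 regions of r around the group means, among 12980 genes, as a description. Tef, which encodes another factor of the D-box family, was first with a mean r of 0.758, followed by Fam214a (0.724), Cdk5rap3 (0.717), Rbm3 (0.714), whose product is an RNA-binding protein induced by cold, and Fen1 (0.692), a flap endonuclease gene. At the opposite end were Hspa8 (-0.797), a constitutive heat shock chaperone, Nfil3 (-0.726), which encodes a repressor that binds D-box elements, Rasa2 (-0.725), Stip1 (-0.714), a co-chaperone, and Kdr (-0.71), the endothelial VEGF receptor gene. Those most like Arntl were Cldn5 (0.753), which encodes a tight junction protein of endothelium, Hnrnpc (0.696) and Trim9 (0.678). Each of these coefficients shares the libraries, their depth and their dissection with the members. Time of collection is not in the labels used here, and its part in this order of libraries was not tested.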

How the data were processed

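The authors deposited 3 tables of 60 libraries. The expected counts per gene were estimated with Salmon, and limma and edgeR are also named, per the submitters' processing notes; for their versions, the genome build and the use of strand the sources used here give nothing. The log2 CPM that the authors deposited matched values recomputed from the counts as voom does it, with a largest deviation of 5.51e-14. The deposited precision weights (score) were read as voom weights and used in limma only.

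Gene names came from GENCODE M21 by Ensembl ID, for 20403 of 20423 genes (99.9%). Expected counts were rounded, scaled by TMM over the libraries of a fit, filtered with filterByExpr and tested with edgeR 4.0.16 (glmQLFit, glmQLFTest; R 4.3.3). Each region was fitted on its 20 libraries with 4 group means, and regions were compared in 1 fit of all 60 libraries. P-values were adjusted by Benjamini-Hochberg over all genes tested, with a threshold of 0.05. CPM values use TMM over 60 libraries, and log2 CPM a prior count of 2. SE is the log2 difference over the square root of F.

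Relations were tested with 100000 permutations of libraries within groups, 2-sided; the smallest p they can give is 1e-05. The tests were checked on simulated data. Named were every member in every region, in a comparison the members called or up to 3 with the smallest p, up to 4 called genes of the pathway list or the 2 with the smallest p, and the genes most like Dbp and Arntl (mean of at least 1 CPM in every region). The members and lists were chosen with earlier results of these data known. Alternatives were DESeq2 1.42.0, its size factors, no filter and limma 3.58.1 on the deposited values. Further ones were the choroid plexus mean as a covariate and the replicate number as a block. Within a region the block joined libraries of all groups with equal numbers, and across regions those of equal sex, genotype and number. Within a region each library was also left out in turn. In the fits across regions, 1 replicate number of every group was left out at a time. Replicates are libraries; where equal numbers are 1 mouse, regional tests share mice. P-values measure the spread between these libraries. Some results that the naming rule would give are not reported here.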

Additional observations from a re-analysis of the deposited data

Results flagged for a closer look

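In 8 of 120 groups of 5 libraries (10 genes in 12 groups) the highest or lowest library lay far from the other 4, by Dixon's criterion at the 95% level, which chance meets in about 1 in 20 groups. Per1 was 227 CPM in PON2-deficient male cortex 3, against 160 to 179 CPM in the other 4. Per3 was 32.2 CPM in PON2-deficient male striatum 5, the library with the low weight, against 42.5 to 44.7 CPM. Dbp was 117 CPM in PON2-deficient male cortex 2, against 75.5 to 83.9 CPM, and 105 CPM in wild-type male cortex 1, against 81.4 to 88.3 CPM. Ciart was also high in wild-type male cortex 1, at 19.6 CPM, against 12.9 to 14.4 CPM. Nr1d1 was 157 CPM in wild-type female cerebellum 5, against 126 to 132 CPM. Nr1d2 was 81.3 CPM in wild-type male striatum 5, against 105 to 114 CPM. Arntl was 25 CPM in PON2-deficient male striatum 2, against 31.7 to 34 CPM.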

How the results depend on the processing

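DESeq2 called 1 member, Per2, where edgeR called 0, in genotype cerebellum (adjusted p = 0.0426) and genotype in males cerebellum (0.00286). It also gave 1 where edgeR gave 0 in genotype cortex, where counts of members are a description. No member difference that was recomputed changed sign under any alternative run. Leaving out each library in turn gave 0 to 1 members called in genotype cortex and 0 to 1 in genotype in males cortex, and 0 in the other genotype and sex comparisons within a region. In the edgeR fits across regions single libraries were not left out; leaving out 1 replicate number of every group, 5 runs in all, gave 3 to 5 for striatum against cortex, 6 for cerebellum against cortex, 8 to 9 for cerebellum against striatum, and 0 for genotype by region. Among male libraries alone, 1 relation with Arntl passed, against 15 with both sexes.

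Counts over all genes moved more. DESeq2 called 238 genes where edgeR called 6 in cortex between genotypes, 7 against 2 in striatum and 244 against 6 in cerebellum. In females these were 31 against 1, 2 against 1 and 8 against 1, in males 433 against 28, 5 against 1 and 203 against 3, and between sexes 80 against 17, 59 against 20 and 44 against 22. For genotype by region DESeq2 called 7, 17 and 7 genes, against 0, 3 and 2. The deposited values in limma called 2 genes in female cortex, female striatum and male striatum against 1 each, 14 in male cortex against 28, 16 in cerebellum against 6, 9 in male cerebellum against 3, 57 between sexes in striatum against 20, and 12 for genotype by region in cerebellum against cortex, against 3. The choroid plexus covariate left 2 genes called in cortex against 6, and 10 between sexes against 17. Leaving out single libraries gave 1 to 26 genes in cortex, 1 to 150 in male cortex, 1 to 49 in cerebellum and 2 to 41 in male cerebellum. The causes were not tested.

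The labels do not say that equal numbers pair libraries. Over all genes, the equal number was the best match more often than chance would give in each pair of regions, and closer to chance between genotypes. Deviations of equally numbered libraries correlated above 0.1 in 8, 13 and 10 of 20 pairs between regions, and the equal number was the best match in 9, 14 and 13 of 20, a hint of pairing between regions from the data and not from the design. Between genotypes these were 3, 5 and 4 of 10 pairs, and 3, 4 and 4 of 10. Each best match was sought among the 5 libraries of a group, of the same sex and genotype in the other region. For genotype pairs the group was that of the same sex and region in the other genotype. Chance would pick the equal number in about 4 of 20 pairs between regions, and in the same share of genotype pairs. With the replicate number as a block, the members called were 0 in genotype cortex, as without it, and 24 genes were called there against 6, with 11 in cerebellum against 6, 5 in male cerebellum against 3, 3 for genotype by sex in cortex against 0, and 11 between sexes in cortex against 17. The part of counting error in the spread between libraries was not computed.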
